A study of Mus musculus with 8 samples.

Results

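The genes of MHC class II antigen presentation and the mucosal antibody receptor were followed by name through epithelium from 4 regions of the embryonic mouse gut. The 8 genes, out of 23393 in the table, were Cd74, H2-Aa, H2-Ab1, H2-Eb1, H2-DMa, H2-DMb1, Ciita and Pigr. They were chosen by name with their levels in these same libraries already known, so their levels and differences are given as a description. No p-value is printed for any member. The numbers of members called in several fits are given in 1 paragraph, beside the share or number of all genes called, with nothing read from them. Poly(A) RNA was sequenced from the colon, the proximal small intestine (intestine below), the hindstomach, which is the glandular part of the mouse stomach, and the forestomach, which is its squamous part. Each region had 2 libraries, all from untreated E16.5 embryos (late gestation). The labels give ShhCre;R26YFP/+ as the genotype of all of them: a Cre recombinase named for Shh, a gene active in gut epithelium, and 1 copy of a YFP reporter at the Rosa26 locus. Colon and intestine epithelium was shaken off in 5 mM EDTA and hindstomach epithelium in 10 mM EDTA, whereas forestomach epithelium was loosened with Dispase and peeled by hand, so region and isolation cannot be told apart for either part of the stomach. The labels do not say whether the libraries of a region came from separate embryos, so the p-values here reflect library-to-library variation only, and that may be technical.

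MHC class II molecules are pairs of an alpha and a beta chain that show peptides from engulfed material to CD4+ T cells. The invariant chain, the product of Cd74, fills their groove during transport, and the DM molecule exchanges the last piece of it for a peptide. Dendritic cells and B cells carry class II at all times, and macrophages can carry it. Adult intestinal epithelium can carry it too, chiefly under interferon-gamma, through the coactivator CIITA. The product of Pigr carries dimeric IgA and pentameric IgM from the tissue side of a mucosal epithelial cell to the lumen, where a cleaved part of it stays bound to the antibody as secretory component.

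CIITA does not bind DNA itself but joins the RFX, CREB and NF-Y factors on a compact promoter module made of an X box and, closer to the gene, a Y box. The 150 bases before the RefSeq start (mouse build GRCm38.p6) are shown for 2 class II chains because they carry both boxes, and for Pigr as the member outside class II. Capitals mark CTNGNAAC as the X box and TGATTGG as the Y box in the class II promoters, and CACGTG, an E box, in Pigr, where an E box bound by USF factors is known from the human gene.
H2-Aa, chr17:34287824-34287973, minus strand: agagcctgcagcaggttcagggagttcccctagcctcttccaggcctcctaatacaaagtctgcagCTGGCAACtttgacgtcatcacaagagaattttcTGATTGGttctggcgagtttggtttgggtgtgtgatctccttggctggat
H2-Eb1, chr17:34305717-34305866, plus strand: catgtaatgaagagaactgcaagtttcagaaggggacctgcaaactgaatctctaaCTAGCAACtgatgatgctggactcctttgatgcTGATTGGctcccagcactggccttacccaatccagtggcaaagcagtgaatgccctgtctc
Pigr, chr1:130826534-130826683, plus strand: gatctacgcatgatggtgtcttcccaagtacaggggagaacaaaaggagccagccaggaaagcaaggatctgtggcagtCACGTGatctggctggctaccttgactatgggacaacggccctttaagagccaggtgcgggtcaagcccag

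The X box began 84 bases before the start of H2-Aa and 94 before that of H2-Eb1, with the Y box at 50 and 61 bases, so that 26 and 25 bases lay between the boxes. H2-DMb1 held the same pair 97 and 63 bases before its start, 26 bases apart. Over 250 bases before the start, and counting either strand, the Y box letters occurred in 7.23% of 32851 promoter windows, the X box letters in 10.9% and the E box letters in 6.02%. An X box followed by a Y box on the gene's strand, with 20 to 45 bases from the first base of one to the first base of the other, occurred in 13 windows of 11 genes, which is 0.0396% of windows. Of those genes 4 belong to class II: H2-Aa, H2-Eb1, H2-DMb1 and H2-Ob. The pair was thus found in 3 of the 4 class II members with a window, and H2-DMa, with 2 windows, held it in neither. These letters and the spacing were chosen after the promoters had been read, and a match is a description of sequence only. Windows of Cd74, H2-Ab1 and Ciita were not used here. No motif overlapped another in the 3 sequences shown.

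In these libraries the 2 forestomach samples stood apart, and they are given separately throughout. The correlation of log2(FPKM + 1) between the libraries of a region was 0.713 in forestomach and between 0.959 and 0.984 in the other 3. FPKM scales fragments to the length of the transcript and the size of the library. In the library labelled forestomach replicate 1, 10 genes made up 52.5% of the FPKM total, whereas the top 10 of any other library made up 6.27% to 17.4%. H19, an imprinted RNA abundant before birth, stood at 10.1 FPKM in that library and at 4129 to 9609 FPKM in the rest, and the fetal growth factor gene Igf2 at 1.15 FPKM against 348 to 864 FPKM. Its low value for both genes goes against its E16.5 label. The keratin gene Krt14, a marker of squamous epithelium, reached 193 and 212 FPKM in the forestomach pair, against 1.76 FPKM at most elsewhere. The other squamous markers differed between the pair: Krt5 was at 167 FPKM in replicate 1 and 2574 in replicate 2, Trp63 at 2.85 and 53.0, and Lor at 320 and 3029. Markers of glandular stomach were high in replicate 1, where Gkn2 was at 35988 FPKM, Tff1 at 89.1 and Cldn18 at 175, whereas in replicate 2 Gkn2 was listed at 0, Tff1 was at 0.150 and Cldn18 at 14.9. Hindstomach had 79.7 and 161 FPKM of Gkn2, so on squamous and glandular markers, too, replicate 1 goes in part against its label. Depth relative to intestine replicate 1 was about 0.428 to 0.949 in the other 7 libraries, read from the steps between low values and uncertain by a factor of 2.

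Cd74, the invariant chain gene on chromosome 18 (60803848 to 60812652, plus strand), was measured at 7.25 and 9.77 FPKM in colon, 6.96 and 2.16 FPKM in intestine, 1.81 and 2.01 FPKM in hindstomach, and 91.95 and 0.0382 FPKM in forestomach. The highest and the lowest of the 8 libraries were therefore the 2 forestomach replicates. Outside the forestomach the means were 8.51 ± 1.78 FPKM in colon, 4.56 ± 3.40 in intestine and 1.91 ± 0.14 in hindstomach (SD, n = 2 each). On the FPKM scale colon lay above intestine in both libraries and by more than the larger SD. Intestine and hindstomach differed by 2.65 FPKM, less than the intestine's SD. The separation of colon from intestine depended on the scaling. Median-of-ratios scaling divides the colon libraries by 1.10 and 1.25 and the intestine libraries by 0.957 and 0.842. That puts colon replicate 1 below intestine replicate 1 for Cd74.

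**Figure D1:**
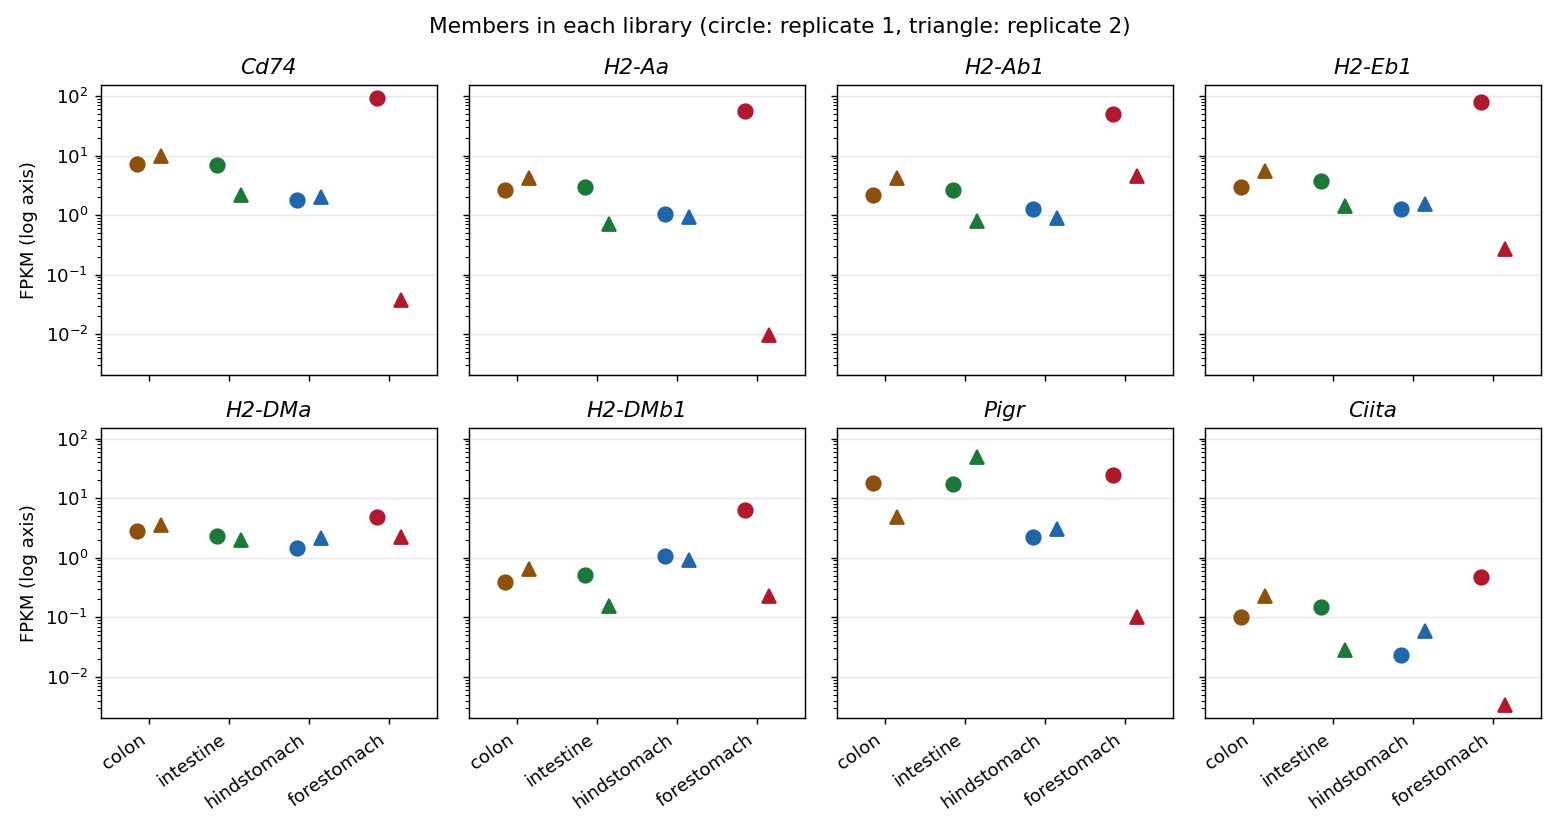
FPKM of the 8 genes in each library on a shared log axis, by region, with replicate 1 as a circle and replicate 2 as a triangle. For every gene but H2-DMa the forestomach triangle sits more than 10-fold below the forestomach circle, and H2-DMa spans the narrowest range, 1.46 to 4.85 FPKM.

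The classical alpha chain gene H2-Aa (chromosome 17, 34282744 to 34287823, minus strand) had 2.62 and 4.25 FPKM in colon, 2.95 and 0.704 FPKM in intestine, 1.05 and 0.931 FPKM in hindstomach, and 55.5 and 0.00957 FPKM in forestomach. Its partner H2-Ab1, the beta chain of the same I-A molecule (chromosome 17, 34257689 to 34269419, plus strand), had 2.18 and 4.16 FPKM in colon, 2.69 and 0.786 FPKM in intestine, 1.26 and 0.888 FPKM in hindstomach, and 50.8 and 4.51 FPKM in forestomach. Both genes of the pair were at nearly the same FPKM in 7 of the 8 libraries: the ratio of H2-Ab1 to H2-Aa was 0.835 to 1.21 in the 6 libraries from colon, intestine and hindstomach and 0.915 in forestomach replicate 1. In forestomach replicate 2 it was 472, with H2-Ab1 the second highest of all 8 libraries and H2-Aa the lowest. By FPKM, forestomach replicate 2 thus had 1 chain of I-A with almost none of the other, and the reason was not tested. GENCODE M21 lists no gene that overlaps H2-Ab1. It lists the antisense gene Gm20513 over 2204 bases of H2-Eb1 and the microRNA gene Mir5107 over 88 bases of Cd74. How reads were assigned is not given in the sources used here.

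H2-Eb1, the beta chain of the I-E molecule (chromosome 17, 34305867 to 34316674, plus strand), was measured at 2.95 and 5.55 FPKM in colon, 3.68 and 1.42 FPKM in intestine, 1.24 and 1.55 FPKM in hindstomach, and 78.9 and 0.273 FPKM in forestomach. It kept a ratio of 1.13 to 2.02 to H2-Aa outside the forestomach and 1.42 in forestomach replicate 1, against 28.5 in forestomach replicate 2. The gene of its alpha chain is annotated as H2-Ea-ps, a polymorphic pseudogene, because strains of the H2b haplotype, such as C57BL/6, lack its promoter. H2-Ea-ps had 2.42 and 1.44 FPKM in colon, 1.64 and 0.511 FPKM in intestine, 0.496 and 0.311 FPKM in hindstomach, and was listed at 0 in both forestomach libraries. Forestomach replicate 1, with the most H2-Eb1 of all libraries, was therefore one of the 2 in which the I-E alpha chain gene was listed at 0; in the other 6 the ratio of H2-Ea-ps to H2-Eb1 was 0.200 to 0.820. Strain is not among the labels of these libraries.

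For the 3 classical chains the order of regions outside the forestomach was the same as for Cd74, colon, intestine, hindstomach, but no neighbours in it differed beyond their spread. H2-Aa averaged 3.44 ± 1.16, 1.83 ± 1.59 and 0.989 ± 0.082 FPKM in that order, H2-Ab1 3.17 ± 1.40, 1.74 ± 1.35 and 1.08 ± 0.265, and H2-Eb1 4.25 ± 1.84, 2.55 ± 1.59 and 1.40 ± 0.219 (SD, n = 2 each). Part of the intestinal spread was shared between genes: replicate 1 exceeded replicate 2 in 7 of the 8 members, by 3.23-fold for Cd74 and 4.20-fold for H2-Aa. In colon replicate 2 exceeded replicate 1, also in 7 of 8. Of all 12894 genes tested, 67.6% were higher in intestine replicate 1 than in replicate 2, and 67.2% were higher in colon replicate 2 than in replicate 1. Pigr was the exception in both regions.

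The DM molecule is the peptide editor of the pathway, and its chains behaved unalike. H2-DMa (chromosome 17, 34119541 to 34139101, plus strand) was the steadiest member, at 2.82 and 3.49 FPKM in colon, 2.29 and 1.99 FPKM in intestine, 1.46 and 2.11 FPKM in hindstomach, and 4.85 and 2.26 FPKM in forestomach. Its mean in colon, 3.16 ± 0.478 FPKM, was above that in intestine, 2.14 ± 0.209 FPKM, by more than the spread (SD, n = 2 each). This order depended on the scaling: the log2 difference of 0.40 was 0.12 under median-of-ratios scaling and −0.14 under quantile normalization. The gene overlaps Brd2 on the opposite strand over 3094 bases, and Brd2 had 22.9 to 38.6 FPKM in every library; since the strand setting is not given in the sources used here, its part in the H2-DMa values was not tested.

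H2-DMb1 (chromosome 17, 34153072 to 34160230, plus strand) had 0.399 and 0.640 FPKM in colon, 0.517 and 0.157 FPKM in intestine, 1.05 and 0.926 FPKM in hindstomach, and 6.44 and 0.229 FPKM in forestomach. It was the 1 class II member highest in hindstomach among the 3 other regions, where its mean of 0.989 ± 0.088 FPKM exceeded the colon's 0.520 ± 0.170 FPKM by more than the spread (SD, n = 2 each). Relative to H2-Aa it stood at 1.00 and 0.996 in the hindstomach libraries, against 0.150 to 0.224 in those of colon and intestine and 0.116 in forestomach replicate 1. H2-DMb2, its close neighbour and near copy, was at no more than 0.419 FPKM in any library, and how reads common to both genes were assigned is not given in the sources used here.

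**Figure D2:**
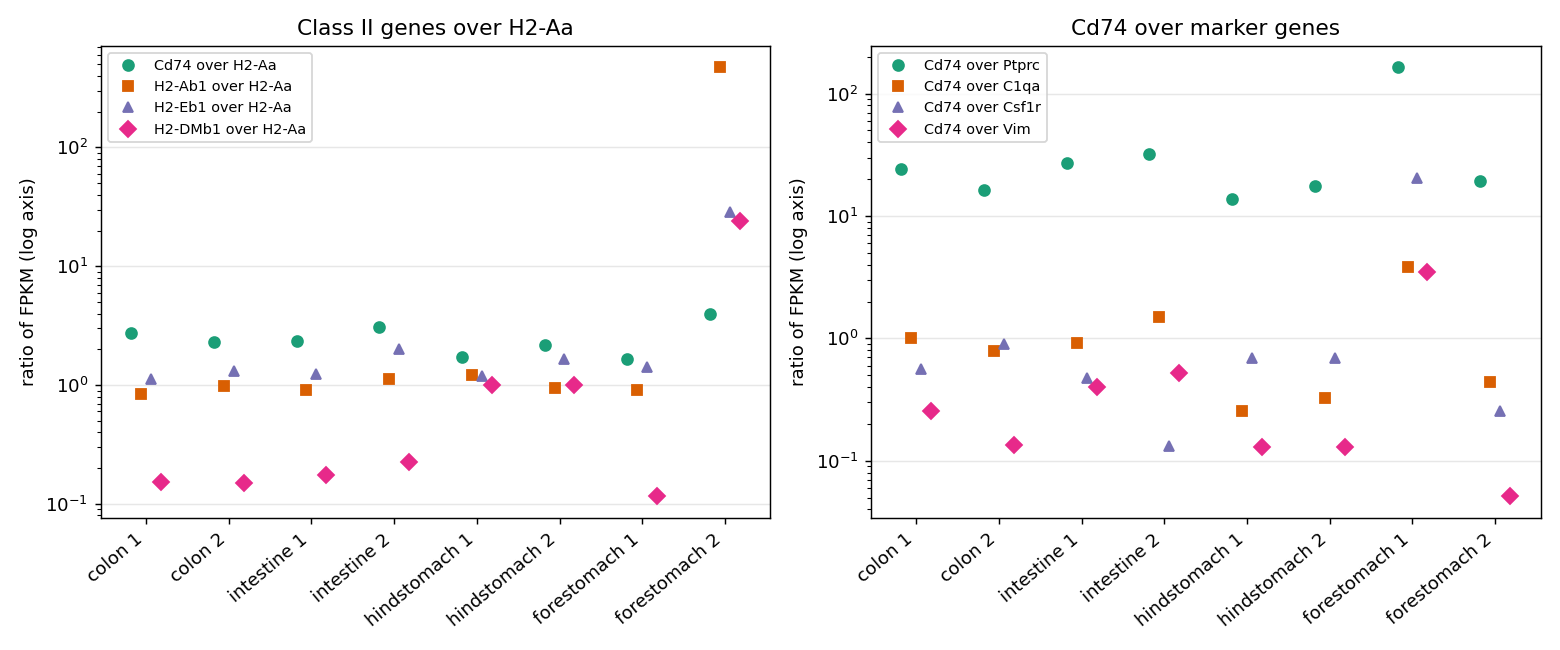
Ratios of FPKM in each library on a log axis, on the left for 4 class II genes over H2-Aa and on the right for Cd74 over the leukocyte gene Ptprc, the macrophage genes C1qa and Csf1r and the mesenchymal gene Vim. H2-Ab1 over H2-Aa is between 0.835 and 1.21 in 7 libraries and 472 in forestomach replicate 2, and all 4 ratios on the right are highest in forestomach replicate 1.

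Ciita, which encodes the coactivator, was the lowest member. It had 0.0996 and 0.229 FPKM in colon, 0.149 and 0.0286 FPKM in intestine, 0.0232 and 0.0590 FPKM in hindstomach, and 0.470 and 0.00341 FPKM in forestomach (chromosome 16, 10480059 to 10528418, plus strand). It was the 1 member that did not pass the filter for testing, at least 1 FPKM in at least 2 libraries, and 7 of 8 passed. The highest and the lowest libraries were again the forestomach replicates, and the order of colon, intestine and hindstomach means, 0.164 ± 0.091, 0.089 ± 0.085 and 0.041 ± 0.025 FPKM (SD, n = 2 each), was that of Cd74 with no difference beyond the spread. Ciita lies across Dexi on the opposite strand over 25888 bases, and Dexi had 1.49 to 7.98 FPKM.

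Pigr (chromosome 1, 130826684 to 130852249, plus strand) followed another order. It was measured at 17.8 and 4.80 FPKM in colon, 17.1 and 48.2 FPKM in intestine, 2.25 and 3.04 FPKM in hindstomach, and 24.1 and 0.102 FPKM in forestomach. Intestine replicate 2, low in the classical class II genes, was the highest library for Pigr, 2.82-fold above replicate 1, and colon replicate 1 was 3.70-fold above replicate 2. The means were 11.3 ± 9.18 FPKM in colon, 32.6 ± 22.0 in intestine and 2.65 ± 0.560 in hindstomach (SD, n = 2 each). All 4 bowel libraries were above both hindstomach libraries, but colon and hindstomach differed by less than the colon's SD.

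Across the 8 genes, forestomach replicate 1 was the highest library in 7, Pigr excepted, and in 10.8% of all genes tested. It exceeded the next library by 9.41-fold for Cd74, 13.05-fold for H2-Aa, 11.2-fold for H2-Ab1, 14.2-fold for H2-Eb1 and 6.13-fold for H2-DMb1, but by 1.39-fold for H2-DMa and 2.05-fold for Ciita. A margin of at least 5-fold over the next library was found in 0.791% of all genes tested. Forestomach replicate 2 was the lowest library for Cd74, H2-Aa, H2-Eb1 and Pigr, that is 4 of the 7 genes that passed the filter, and for 27.6% of all genes tested. Of the pair, it is replicate 1 whose H19, Igf2 and glandular stomach markers go against its label, as given above.

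Because class II in tissue is often carried by leukocytes, markers of immune cells were read beside it. In bulk RNA, fewer cells of a type and less RNA per cell cannot be told apart. The summed FPKM of 24 macrophage and dendritic cell genes was 53.5 and 113.9 in colon, 51.9 and 26.0 in intestine, 47.4 and 39.8 in hindstomach, and 182.7 and 21.2 in forestomach. Its highest and lowest libraries were those of Cd74, and 14 of the 24 genes were highest in forestomach replicate 1. So were 8 of the 13 that passed the filter, beside 10.8% of all genes tested. In intestine 21 of the 24 were higher in replicate 1, and in colon 23 of the 24 were higher in replicate 2, the same replicates as for the class II members. Of all genes tested, 67.6% and 67.2% went in these directions. In forestomach replicate 2, 5 of the 24 were listed at 0, among them the dendritic cell integrin Itgax, while Cd68, a lysosomal macrophage protein, was at 12.3 FPKM there, above its 1.38 to 7.99 FPKM in the other libraries. The part of such cells in the class II levels was not tested.

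Single markers gave the same picture in part. Ptprc, the pan-leukocyte phosphatase CD45, had 0.297 and 0.595 FPKM in colon, 0.259 and 0.0675 FPKM in intestine, 0.131 and 0.114 FPKM in hindstomach, and 0.562 and 0.00196 FPKM in forestomach. Forestomach replicate 1 thus had about as much Ptprc as colon replicate 2, and Cd74 was 164 times Ptprc in it, against 13.8 to 31.9 times in the 6 libraries of the other regions and 19.5 times in forestomach replicate 2. Cd74 was 20.6 times Csf1r, the macrophage growth factor receptor, in forestomach replicate 1 and 0.133 to 0.896 times in the 6 libraries. Csf1r itself was 4.46 FPKM in forestomach replicate 1, below the 10.9 to 16.2 FPKM of colon and intestine. Unlike most of the list it was not higher in intestine replicate 1, at 14.7 FPKM, than in replicate 2, at 16.2. The lysozyme gene Lyz2 and C1qa were highest in forestomach replicate 1, at 67.3 and 23.9 FPKM. In the 6 libraries they reached at most 26.0 and 12.5 FPKM. Cd74 was 3.85 times C1qa in forestomach replicate 1, against 0.254 to 1.49 times in the 6 libraries. None of 9 B cell genes passed the filter and their summed FPKM was 0.229 to 2.61, with Cd79a at 0 to 0.678 FPKM. Of 16 T cell, NK cell and innate lymphoid genes 3 passed, and Cd3e stayed at 0.290 FPKM or below. Of the 13 macrophage and dendritic cell genes that passed, limma called 0 in each comparison of neighbouring regions described below, with 1, 2 and 2 at an unadjusted p under 0.05; without forestomach replicate 1, 2 of 12 were called higher and 2 lower in hindstomach than in forestomach and 1 higher in intestine than in hindstomach.

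**Figure D3:**
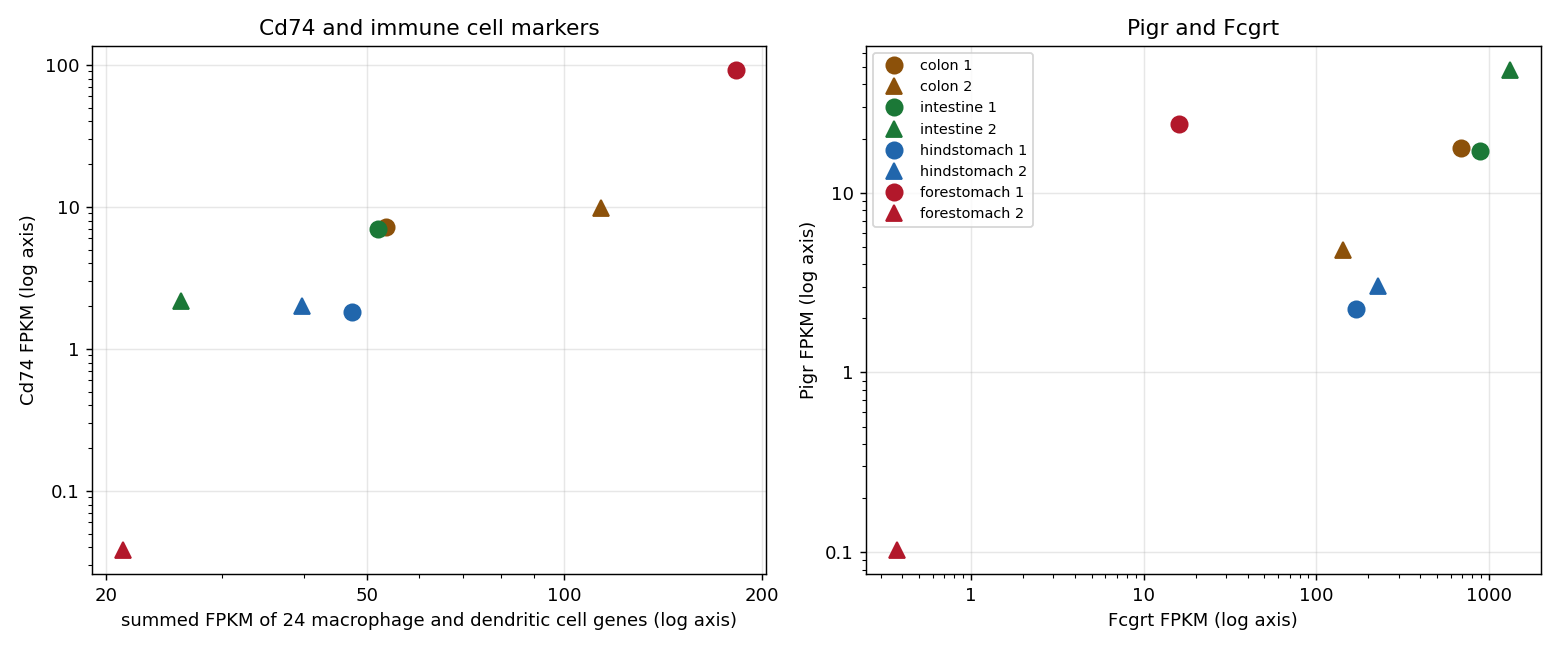
On the left, Cd74 against the summed FPKM of 24 macrophage and dendritic cell genes, and on the right, Pigr against the neonatal Fc receptor gene Fcgrt, 1 point a library on log axes. Forestomach replicate 1 is at the top right for Cd74, and for Pigr it lies left of the colon, intestine and hindstomach libraries, with 24.1 FPKM of Pigr at 16.1 FPKM of Fcgrt.

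Beside Pigr stand the other genes of antibody transport. Fcgrt, the neonatal Fc receptor that takes up milk IgG in suckling rodents, was much more abundant than Pigr outside the forestomach, with 686 and 142 FPKM in colon, 890 and 1322 FPKM in intestine, 170 and 226 FPKM in hindstomach, and 16.1 and 0.371 FPKM in forestomach. The ratio of Pigr to Fcgrt was 0.0133 to 0.0365 in those 6 libraries, 1.499 in forestomach replicate 1 and 0.276 in forestomach replicate 2. Among the 6 libraries Fcgrt and Pigr shared their direction between replicates, both higher in colon replicate 1 and intestine replicate 2. Jchain, the joining chain that lets IgA and IgM polymers bind the receptor, was 15.9 FPKM in forestomach replicate 1 and at most 0.0308 FPKM in the other 7. Of 16 genes listed for IgA transport and plasma cells, 10 were used and 5 passed the filter; the immunoglobulin constant genes were not used here.

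Companion genes were compared between neighbouring regions by limma on log2(FPKM + 1), calling a gene that changed at least 2-fold with a p under 0.05 after Benjamini-Hochberg adjustment. In hindstomach minus forestomach 5.59% of 12894 genes were called, 4.26% higher and 1.33% lower in hindstomach. Intestine minus hindstomach gave 5.03%, with 2.55% higher and 2.47% lower in intestine, and colon minus intestine gave 0.38%, all of them higher in colon. Of the 7 members tested, 0 were called in each of the 3 comparisons, with 1, 0 and 0 at an unadjusted p under 0.05, in the order given. In a fit of intestine and hindstomach alone, where 2296 of 12894 genes were called, 1 member was called higher in intestine. With a forestomach library left out, the other one was assumed to vary like those of the other regions. Without forestomach replicate 2 all 7 members were called lower in hindstomach, where 5.82% of genes were called lower; the remaining library was the highest of all 8 in 6 of these 7 and its values were known when they were chosen. In the same fit 1 was called higher in intestine than in hindstomach (7.28% of genes). Without forestomach replicate 1, which left 6 members through the filter, 0 were called in hindstomach minus forestomach (14.3% of genes higher and 6.55% lower), Pigr was called higher in intestine than in hindstomach (7.42% higher, 9.96% lower), and 0 were called in colon minus intestine (2.5% higher, 0.04% lower). The members were chosen with these contrasts known, and nothing is read from their counts.

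The log2 differences of the members in hindstomach minus forestomach were −1.76 for Cd74, −1.93 for H2-Aa, −3.03 for H2-Ab1, −2.07 for H2-Eb1, −0.66 for H2-DMa, −0.61 for H2-DMb1 and −0.54 for Pigr, beside a median of 0.39 over all genes. Without forestomach replicate 1 the sign turned for Cd74 at 1.48, H2-Aa at 0.98, H2-Eb1 at 0.91 and Pigr at 1.72. In intestine minus hindstomach the differences were 0.79 for Cd74, 0.18 to 0.49 for H2-Aa, H2-Ab1, H2-Eb1 and H2-DMa, −0.58 for H2-DMb1 and 3.04 for Pigr, beside −0.25 over all genes. Those of H2-Aa and H2-Ab1 were −0.22 and −0.21 without intestine replicate 1. In colon minus intestine they were 0.91 for Cd74, 0.19 to 0.75 for the other 5 class II genes and −1.52 for Pigr, beside 0.23 over all genes.

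The list of other class II machinery held 18 genes, of which 13 passed the filter, and 2 of those 13 were highest in forestomach replicate 1. Over all genes tested that share was 10.8%. In forestomach replicate 2, 7 of the 18 were under 1 FPKM, 3 of them listed at 0. Rfx5, a subunit of the RFX complex, had 3.39 and 2.83 FPKM in colon, 3.15 and 3.14 in intestine, 4.84 and 5.67 in hindstomach, and 2.82 and 3.68 in forestomach, so it varied far less than the classical chains. Ifi30, the thiol reductase that unfolds antigen, was high throughout at 98.4 to 470 FPKM. Ctss, the protease that trims the invariant chain in antigen-presenting cells, had 14.5 and 17.0 FPKM in colon, 11.3 in both intestine libraries, 5.13 and 5.64 FPKM in hindstomach, and 20.2 and 0.0528 FPKM in forestomach, and like Cd74 it was highest and lowest in the forestomach pair.

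In intestine minus hindstomach, 2 of the 13 were called, both higher in intestine and both lysosomal proteases. Ctsl, cathepsin L, had 374 and 492 FPKM in intestine and 104 and 88.7 FPKM in hindstomach, a log2 difference of 2.14 ± 0.35 (SE, limma adjusted p = 0.0297). Lgmn, legumain, had 44.0 and 51.9 FPKM in intestine and 16.7 and 18.9 FPKM in hindstomach, a log2 difference of 1.38 ± 0.21 (SE, limma adjusted p = 0.0243). Neither call held when any 1 library of the intestine or hindstomach was left out. Such fits called few or none of all genes in this comparison, so these losses are not particular to Ctsl and Lgmn. In the other 2 comparisons limma called 0 of the 13, with 5 in hindstomach minus forestomach and 1 in colon minus intestine at an unadjusted p under 0.05. Of the 13, 2 were called higher in hindstomach than in forestomach without forestomach replicate 1. The list's median difference was 0.43 in hindstomach minus forestomach, −0.04 in intestine minus hindstomach and 0.14 in colon minus intestine.

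**Figure D4:**
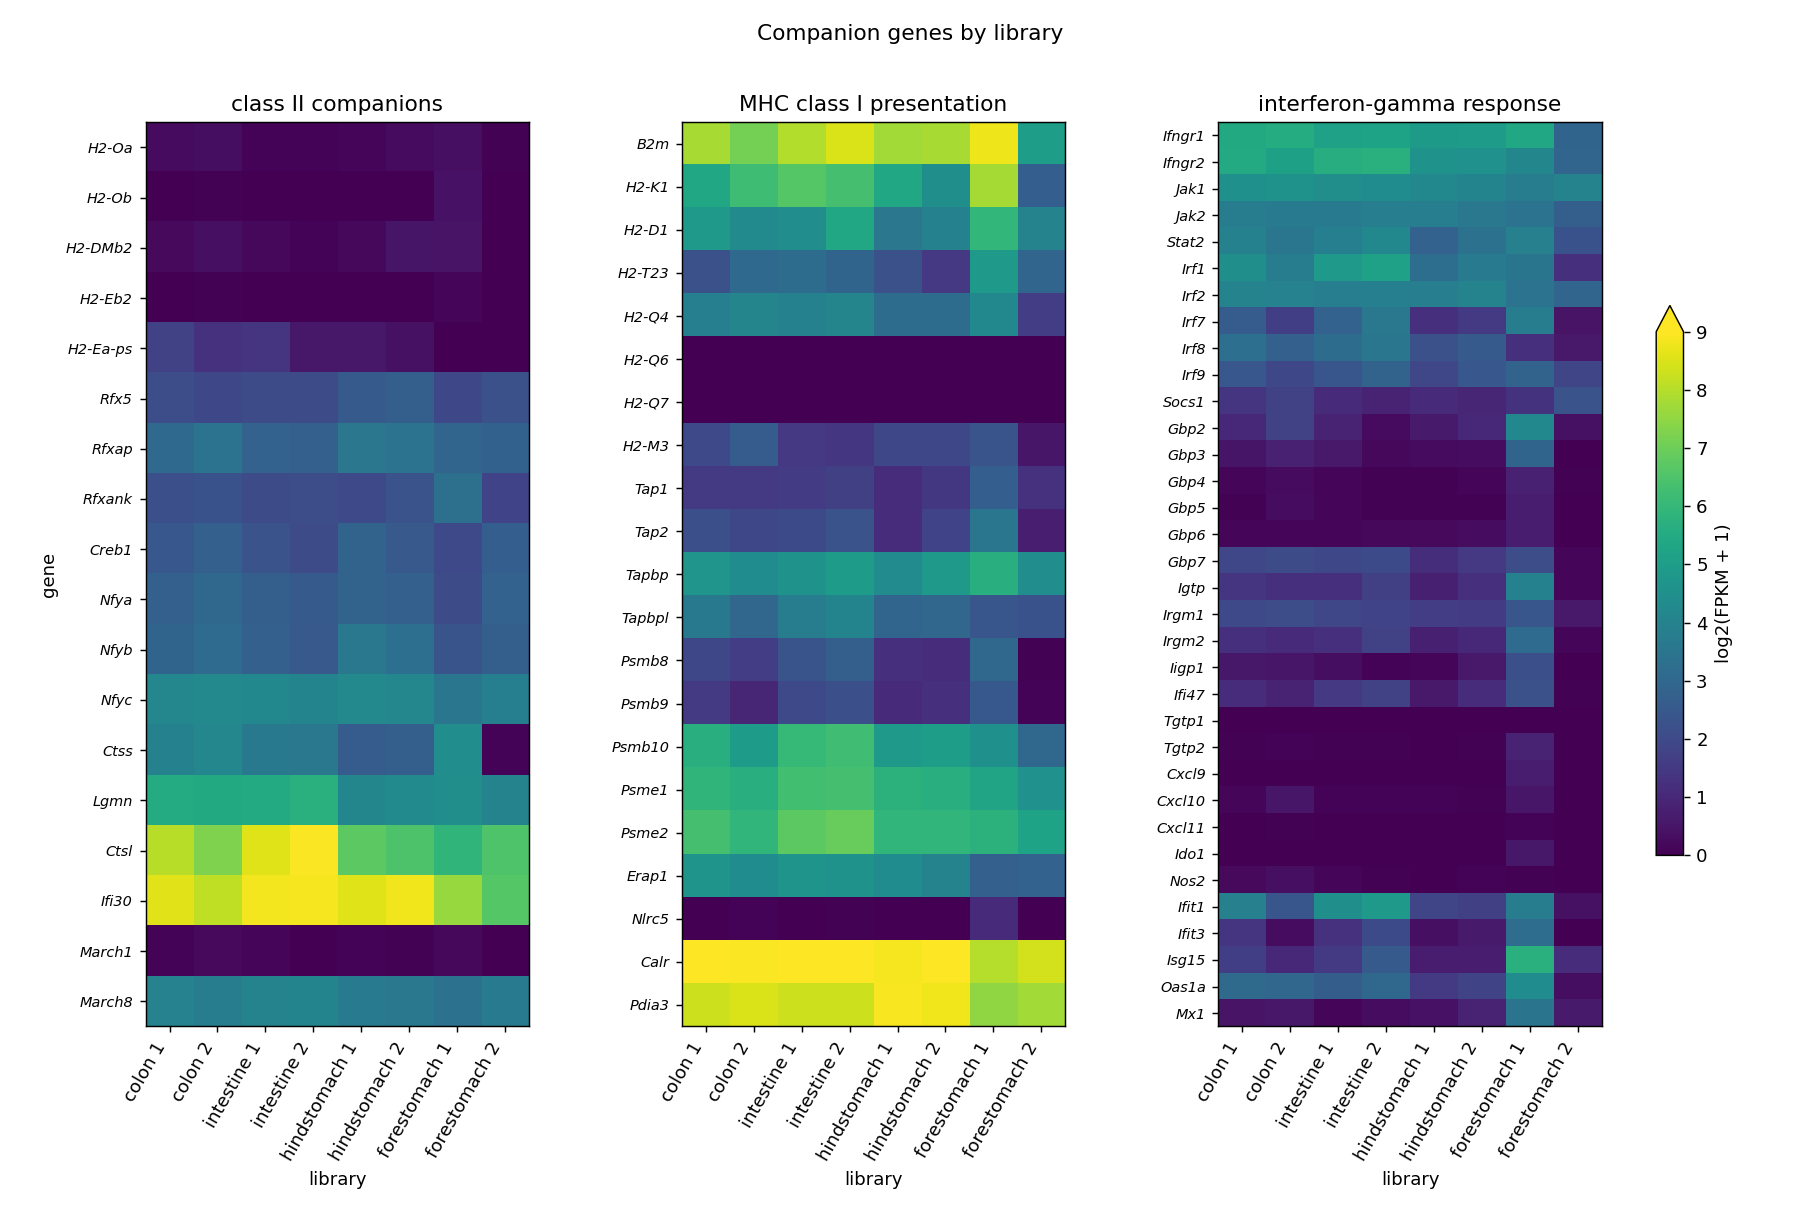
log2(FPKM + 1) of 18 class II companion genes, 21 class I presentation genes and genes listed for the interferon-gamma response in each of the 8 libraries, with values above 9 drawn in the top colour. Forestomach replicate 1 is the highest column in 5, 11 and 22 of these genes, and the column of forestomach replicate 2 is dark for Ctss, Psmb8 and Psmb9.

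MHC class I presents peptides made inside the cell, and its genes share interferon control with class II. Of 21 genes 18 passed the filter, 10 of them highest in forestomach replicate 1 and 11 lowest in forestomach replicate 2. Over all genes tested those shares were 10.8% and 27.6%. H2-K1, a classical class I heavy chain, had 40.9 and 71.9 FPKM in colon, 97.0 and 80.0 FPKM in intestine, 41.5 and 21.6 FPKM in hindstomach, and 219 and 5.49 FPKM in forestomach. Nlrc5, the class I counterpart of Ciita, was at 1.13 FPKM in forestomach replicate 1 and at 0.0647 FPKM or less in the other 7, so both coactivator genes were highest in that library. In hindstomach minus forestomach 2 of 18 were called, both higher in hindstomach. Erap1, the endoplasmic reticulum aminopeptidase that trims peptides, had 19.6 and 15.1 FPKM in hindstomach and 5.77 and 6.05 FPKM in forestomach (log2 difference 1.40 ± 0.20 SE, limma adjusted p = 0.0190). Pdia3, a chaperone of the class I loading complex, had 485 and 449 FPKM in hindstomach and 182 and 215 FPKM in forestomach (1.23 ± 0.21 SE, limma adjusted p = 0.0293). Both calls were lost under median-of-ratios scaling and without any 1 hindstomach or intestine library, and that of Pdia3 also without any 1 colon library. Fewer of all genes were called in each of those fits too. Without forestomach replicate 1, 10 of 18 were called higher in hindstomach and 3 higher in intestine than in hindstomach. In intestine minus hindstomach and colon minus intestine limma called 0 of 18 with all libraries, and 3 and 1 had an unadjusted p under 0.05.

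Of 35 genes listed for the interferon-gamma response 22 passed the filter. Of the 22, 11 were highest in forestomach replicate 1 and 18 lowest in forestomach replicate 2, beside 10.8% and 27.6% of all genes tested. The list is not specific to interferon-gamma and does not tell types of interferon apart. The receptor genes Ifngr1 and Ifngr2 were present in every library, at 6.39 to 46.4 and 6.56 to 51.0 FPKM. The guanylate-binding protein gene Gbp2 had 1.01 and 2.34 FPKM in colon, 0.844 and 0.199 FPKM in intestine, 0.582 and 1.00 FPKM in hindstomach, and 17.3 and 0.314 FPKM in forestomach. Isg15, a ubiquitin-like protein made under interferon, had 2.19 and 0.988 FPKM in colon, 1.90 and 4.86 FPKM in intestine, 0.623 and 0.641 FPKM in hindstomach, and 51.2 and 1.23 FPKM in forestomach. Both were far above the other 7 libraries in forestomach replicate 1. Gbp2 and Isg15 were named after their values were seen. With all libraries limma called 0 of 22 in each comparison, with 3, 4 and 0 at an unadjusted p under 0.05 in hindstomach minus forestomach, intestine minus hindstomach and colon minus intestine. Without forestomach replicate 1, 7 of 22 were called higher and 1 lower in hindstomach than in forestomach, and 6 were called higher in intestine than in hindstomach. The part of interferon in the class II and Pigr levels was not tested.

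Among 32 epithelial defence genes 24 passed the filter. In hindstomach minus forestomach 4 were called higher and 3 lower; without forestomach replicate 1 the counts were 9 and 5 of 23. Retnlb, a goblet cell protein that acts on bacteria, had 34.7 and 14.2 FPKM in hindstomach and 0.0381 and 0.0774 FPKM in forestomach (log2 difference 4.46 ± 0.45 SE, limma adjusted p = 0.00661), and Ccl20, the chemokine that draws CCR6+ cells, had 4.37 and 5.15 FPKM in hindstomach and 0.167 and 0.101 FPKM in forestomach (2.34 ± 0.25 SE, limma adjusted p = 0.00862). Slpi, a secreted protease inhibitor, was lower, with 0.303 and 0.164 FPKM in hindstomach and 89.5 and 1242 FPKM in forestomach (−8.09 ± 1.10 SE, limma adjusted p = 0.0172). For these 3 genes both hindstomach libraries lay on the same side of both forestomach libraries. Retnlb was higher still in the bowel, at 316 and 203 FPKM in colon and 66.0 and 96.7 FPKM in intestine. The hindstomach libraries also held the intestinal markers Fabp2, at 651 and 775 FPKM, and Vil1, at 83.7 and 89.3 FPKM. Intestine had 3502 and 5809 FPKM of Fabp2 and 320 and 374 FPKM of Vil1. The colon marker Hoxd13 was listed at 0 in both hindstomach libraries. The part of intestinal cells in the hindstomach values of Retnlb, Pigr and Fcgrt was not tested. Ltf, lactoferrin, and the alarmin gene Il33 were also called lower in hindstomach, at −4.11 and −2.75, and the protease inhibitor-like Wfdc2 and cathelicidin gene Camp higher, at 2.61 and 1.66. Ccl20 lost its call without either hindstomach library, Slpi without any 1 hindstomach or intestine library, and Ltf, Il33, Wfdc2 and Camp without any 1 library of colon, intestine or hindstomach. Retnlb kept its call with each library left out in turn. Fits without 1 library of colon, intestine or hindstomach called fewer of all genes in this comparison.

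Along the bowel, the lectin genes Reg3b and Reg3g were called higher in intestine than in hindstomach, at 2.98 ± 0.36 and 2.00 ± 0.34 (SE, limma adjusted p = 0.0159 and 0.0327), and Wfdc2 lower at −5.01 ± 0.46 (limma adjusted p = 0.00975). These 2 higher and 1 lower became 6 and 8 of 23 without forestomach replicate 1. Reg3b had 15.4 and 31.6 FPKM in intestine and 2.35 and 1.54 FPKM in hindstomach. Ccl25, the chemokine that brings CCR9+ lymphocytes and IgA plasma cells to the small intestine, was the 1 of 5 tested IgA genes called in any comparison with all libraries; without forestomach replicate 1, 1 was called higher and 1 lower in hindstomach than in forestomach and 2 higher in intestine than in hindstomach. It had 22.1 and 28.6 FPKM in intestine and 3.77 and 3.23 FPKM in hindstomach (2.54 ± 0.51 SE, limma adjusted p = 0.0491). In colon minus intestine, where 2 defence genes were called higher and, without forestomach replicate 1, 4 higher and 1 lower, Saa1, a serum amyloid A gene of colonic epithelium, was called higher, with 12.2 and 10.0 FPKM in colon and 0.0272 and 0 FPKM in intestine (3.57 ± 0.20 SE, limma adjusted p = 0.00609), as was Wfdc2 at 3.72 ± 0.46 (limma adjusted p = 0.0485). The calls of Reg3b, Wfdc2 in intestine minus hindstomach and Ccl25 were lost without any 1 intestine or hindstomach library. That of Reg3g was lost without any 1 colon or hindstomach library, and that of Saa1 without any 1 intestine or hindstomach library. Reg3g passed the filter only through the intestine pair and Saa1 only through the colon pair, so neither was tested when a library of that pair was left out. The filter thus also set the direction of both calls, and their p-values carry that limit. Wfdc2 in colon minus intestine was lost without any 1 library of these 3 regions. Fits without 1 intestine or hindstomach library called few or none of all genes in these 2 comparisons. Losses in those fits are therefore not particular to the named genes.

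The genes most like Cd74 in pattern were sought by Pearson's r of log2(FPKM + 1) over the 8 libraries, a description in which the forestomach pair sets both ends of the range of Cd74. They were Alkbh7 at 0.991, the muscle intermediate filament gene Des at 0.986, the neuropeptide gene Vip at 0.982, Aldh2 at 0.971, the smooth muscle gene Cnn1 at 0.969 and Fgl2 at 0.967. Without forestomach replicate 1, 3 of these 6 were again among the 6 most alike: Alkbh7, Des and Fgl2. Among the members, r to Cd74 was 0.984 for H2-Aa, 0.977 for H2-Eb1, 0.848 for H2-DMa, 0.810 for H2-DMb1, 0.782 for H2-Ab1 and 0.581 for Pigr. Without forestomach replicate 1 it was 0.984 for H2-Aa, 0.982 for H2-Eb1, 0.607 for H2-DMa, 0.179 for H2-DMb1, 0.112 for H2-Ab1 and 0.570 for Pigr; in those 7 libraries forestomach replicate 2 had the highest H2-Ab1 and the lowest Cd74.

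Des makes the shared pattern concrete. It had 24.6 and 39.8 FPKM in colon, 11.8 and 3.52 FPKM in intestine, 3.48 and 6.08 FPKM in hindstomach, and 353 and 0.511 FPKM in forestomach, so this muscle gene was highest and lowest in the same libraries of what is labelled epithelium as Cd74, H2-Aa, H2-Eb1 and Ciita. H2-Ab1, H2-DMb1 and H2-DMa shared its highest library but not its lowest, which was intestine replicate 2 for H2-Ab1 and H2-DMb1 and hindstomach replicate 1 for H2-DMa. For Pigr the most alike included Mvb12a at 0.985, Ifit1 at 0.978, Ces2a at 0.975, Irf7 at 0.970 and Pxk at 0.964. Of these Ifit1 and Irf7 are genes of the interferon response, and Mvb12a ranged only from 37.5 to 58.0 FPKM. Irf7, an interferon regulatory factor, had 5.09 and 2.19 FPKM in colon, 6.10 and 11.2 FPKM in intestine, 1.34 and 1.92 FPKM in hindstomach, and 13.01 and 0.374 FPKM in forestomach. Of these 5 genes it was the 1 still among the most alike without forestomach replicate 1, at an r of 0.996 over 7 libraries.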

How the data were processed

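The deposited values are FPKM in 1 table with 23393 gene symbols, 0 of them duplicated. Per the submitters' processing notes the authors used STAR 2.4.2a and mm10 (GRCm38); how FPKM was computed, with which annotation and strand setting, is not given in the sources used here. Another 4 columns match no sample here and were not used. Read numbers are unknown, so no counting interval is given.

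A model with 4 region means was fitted to log2(FPKM + 1) of the 12894 genes that reached 1 FPKM in 2 or more libraries (limma 3.58.1 under R 4.3.3, trended eBayes, 4 residual degrees of freedom), and p-values were adjusted over all genes of a comparison. The scale understates changes of low genes. The fit was checked on simulated data whose spread came from colon, intestine and hindstomach only and in which only well-expressed genes were changed. The wider spread of the forestomach pair was not simulated, so the check does not describe the fit with that pair in it. Neighbours in an order of means were said to differ beyond their spread where their libraries did not overlap and the means differed by more than the larger SD.

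The members, the 11 companion lists and the tests were chosen with earlier results of these data known. Named companions were those called (up to 4 a list and comparison), the 3 most abundant of a list, or defining markers; the others, among them Rfx5, Ctss, H2-K1, Nlrc5, Jchain, H2-Ea-ps, H2-DMb2 and Itgax, were picked after their values were seen. Patterns were compared among genes reaching 10 FPKM in any of the 8 libraries, also where forestomach replicate 1 was left out. A gene that these rules allow is not reported here, by name or in the heatmap. Gene positions are from GENCODE M21, promoters from RefSeq, where 5 of the 8 members matched. Alternatives were other pseudocounts, filters, scalings and variance models, leaving out each library, a fit of 2 regions only, and a block for the replicate number.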

Additional observations from a re-analysis of the deposited data

How the results depend on the processing

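The number of genes called was 721 in hindstomach minus forestomach, 648 in intestine minus hindstomach and 49 in colon minus intestine. In that order it was 335, 237 and 9 with the replicate block, and 79, 2296 and 29 in a fit of only the regions compared. Median-of-ratios scaling gave 455 in the first, no filter gave 392 in the second, and in the third a pseudocount of 0.1 gave 22 and a filter at 5 FPKM gave 12. With each library left out in turn the counts ranged from 75 to 3126, from 0 to 2173 and from 0 to 317. Counts of 0 came from limma without 1 intestine library, without hindstomach replicate 2 or without 1 colon library, with 389 to 2154 genes at an unadjusted p under 0.05. The share of calls higher in hindstomach than in forestomach was 76.1%, but 49.0% under median-of-ratios scaling and 48.5% under quantile normalization; for intestine minus hindstomach it was 50.8%, 65.8% and 59.9%. Deviations of same-numbered libraries correlated from −0.578 to 0.270 between regions. With 2 libraries a region this cannot show whether same-numbered libraries share an origin. Of the member differences recomputed under alternatives, 308 moved by less than their spread and 7 by more, all of H2-DMa or H2-DMb1. That spread joins the SDs of the 2 regions compared, so leaving out 1 library could not move a difference beyond it. The 308 therefore do not show stability. Without forestomach replicate 1 the sign in hindstomach minus forestomach turned for Cd74, from −1.76 to 1.48, and for H2-Aa, H2-Eb1 and Pigr. Under quantile normalization H2-DMa and H2-DMb1 were negative in colon minus intestine, at −0.14 and −0.31. H2-DMb1 was also −0.0023 there without intestine replicate 2. Pigr was 0.30 in hindstomach minus forestomach with a pseudocount of 0.1. Companion calls held in 258 recomputations and were lost in 165, with 0 changes of direction, and the cause was not tested. With 2 libraries a region, a difference that misses the threshold is not shown to be absent.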
